A study of Arabidopsis thaliana with 6 samples.

Results

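The ascorbate peroxidase family of *Arabidopsis thaliana* was followed in leaves of the catalase mutant *cat2-2*. Its 7 members were taken by locus: APX1 (AT1G07890), APX2 (AT3G09640), APX3 (AT4G35000), APX5 (AT4G35970), APX6 (AT4G32320), SAPX (AT4G08390) and TAPX (AT1G77490), out of 33602 genes in the count table. Each locus carries the same symbol in the RefSeq annotation, and every member had counts and passed the filter on low counts, as did 18504 genes in all. The plants were 3-week-old Columbia-0 *cat2-2* mutants, and every library was a pool of middle-aged leaves of 15 plants. The high CO2 group (3 libraries, 0 h) was raised and sampled at 3000 ppm CO2, a light intensity of 120 µmol m-2 s-1 and 75% relative humidity. The high light group (3 libraries) came from such plants moved for 3 h to another growth chamber with 400 ppm CO2, 1200 µmol m-2 s-1 and 55% relative humidity, with 21 °C in both. The same mutation was present in all libraries without a wild type beside them, so whether a difference is particular to the mutant was not tested, and CO2, light, humidity, chamber and time cannot be told apart. CAT2 itself was still counted, at 1760, 2427 and 1752 in the libraries from high CO2 against 724, 1010 and 928 after high light.

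Ascorbate peroxidases are haem enzymes that reduce hydrogen peroxide to water with ascorbate as the electron donor. The oxidised ascorbate is restored by monodehydroascorbate reductase, dehydroascorbate reductase and glutathione reductase. Catalase, whose main leaf gene CAT2 is mutated here, removes the hydrogen peroxide that photorespiration makes in peroxisomes and needs no reductant. The family is spread over the cell. APX1 and APX2 are cytosolic and APX6 is placed with them here, although its location is less certain. APX3 sits in the peroxisomal membrane, and APX5, its closest relative, is placed with it. TAPX is bound to thylakoid membranes, and SAPX is found in the plastid stroma and in mitochondria.

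The members moved in different directions with the shift to high light. Cytosolic APX1 rose 2.35-fold by mean level and APX2, nearly uncounted in high CO2, rose as well, whereas cytosolic APX6, peroxisomal APX5 and thylakoid TAPX fell. APX3 and SAPX did not pass the test. So 2 of 7 members rose and 3 fell in edgeR's quasi-likelihood test at a Benjamini-Hochberg adjusted p under 0.05, which called 60.8% of all genes tested, with 30.4% higher and 30.4% lower. The same 5 members had groups that did not overlap, against 67.2% of all genes tested, so both counts of members are near the background. Without high CO2 replicate 2 only TAPX remained among the fallen. That fit also called fewer genes as fallen in general, 4274 of 18749 tested against 5616 of 18504 with all libraries. In pooled leaves, fewer cells of a type and less RNA per cell cannot be told apart. The members' median log2 fold change was -0.43, and that of all genes tested -0.06.

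The promoters of the risen pair, APX1 and APX2, and of APX5, which fell, are shown because they are the members with a heat shock element core, the short repeat bound by heat shock factors. The sequences run 5′ to 3′ from 250 bases before to 50 bases after the annotated gene start, are RefSeq's for the TAIR10.1 build, and have the cores GAANNTTC and TTCNNGAA in capitals. Each core equals its own reverse complement, so a search of 1 strand covers both, and the patterns did not overlap each other in these windows.
APX1 promoter (chr1:2437031-2437330, plus strand): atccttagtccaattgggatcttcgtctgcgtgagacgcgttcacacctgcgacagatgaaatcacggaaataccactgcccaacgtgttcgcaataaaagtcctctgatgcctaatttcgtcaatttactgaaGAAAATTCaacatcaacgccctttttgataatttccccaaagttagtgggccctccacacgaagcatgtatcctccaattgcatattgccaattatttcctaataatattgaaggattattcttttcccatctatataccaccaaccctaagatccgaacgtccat
APX2 promoter (chr3:2955906-2956205, plus strand): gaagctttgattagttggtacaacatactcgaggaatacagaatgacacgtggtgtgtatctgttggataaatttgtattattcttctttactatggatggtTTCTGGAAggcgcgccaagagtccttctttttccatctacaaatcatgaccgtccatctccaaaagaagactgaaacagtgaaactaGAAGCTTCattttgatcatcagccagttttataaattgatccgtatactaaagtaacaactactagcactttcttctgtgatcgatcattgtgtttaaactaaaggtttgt
APX5 promoter (chr4:17028336-17028635, plus strand): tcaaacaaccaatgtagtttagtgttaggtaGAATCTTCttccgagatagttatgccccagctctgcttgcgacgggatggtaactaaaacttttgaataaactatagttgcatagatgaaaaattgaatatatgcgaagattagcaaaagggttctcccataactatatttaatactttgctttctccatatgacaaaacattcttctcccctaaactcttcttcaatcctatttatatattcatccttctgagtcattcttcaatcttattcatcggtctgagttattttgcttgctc

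APX2 held both cores, GAANNTTC at -61 to -54 and TTCNNGAA at -148 to -141, counted from 0 at the gene start. APX1 held a single GAANNTTC at -116 to -109, and APX5 had 1 farther out, at -219 to -212. Over 27443 promoters of protein-coding genes, 11.6% held GAANNTTC, 9.2% held TTCNNGAA and 19.3% held either. The G-box CACGTG was found in APX2 and APX3, and in 7.7% of all promoters. The W-box letters TTGACT, searched on both strands, were found in SAPX and TAPX (21.8% of all promoters), and TTGACC was in 0 of the 7 windows (14.2% of all promoters). APX6 held none of these letters in its window. A match is only a match of letters, and the APX5 window shows that the same core stood before a transcript that fell.

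**Figure D1:**
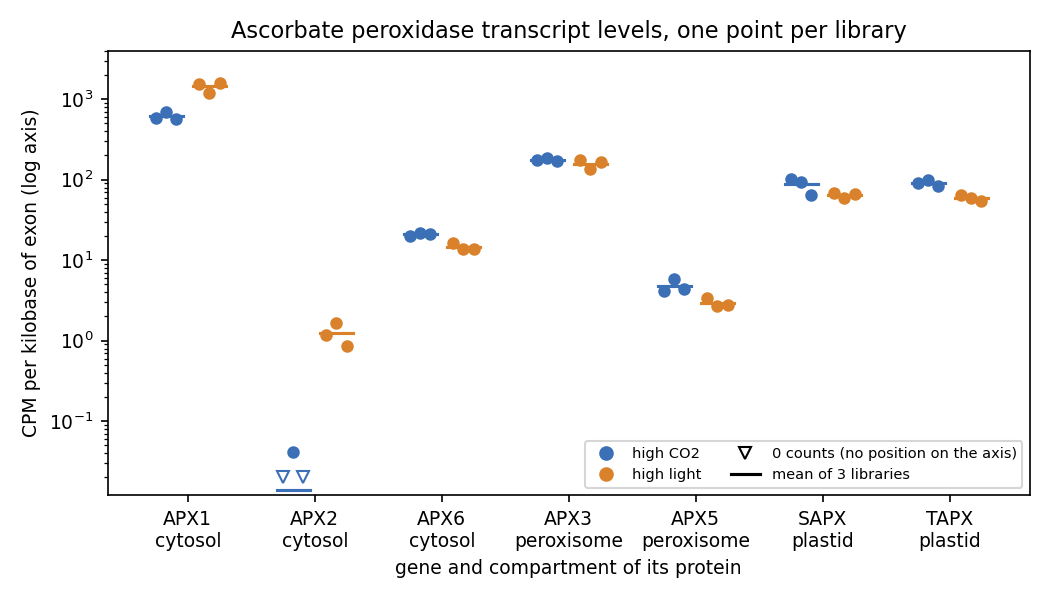
Transcript levels of the 7 ascorbate peroxidase genes as CPM (counts scaled to the TMM-adjusted library size) per kilobase of exon on a log axis, with a point per library and a bar at the mean of 3 libraries. The high light points lie above the high CO2 points for APX1 and APX2, below them for APX6, APX5 and TAPX, and overlap them for APX3 and SAPX, and open triangles mark the high CO2 libraries with 0 counts of APX2.

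APX1 is the main cytosolic enzyme, known in *Arabidopsis* for protecting leaves against hydrogen peroxide made in the light. It was counted at 1038, 1258 and 1009 CPM (counts relative to the scaled library size) in high CO2 replicates 1 to 3, and high light gave 2763, 2124 and 2881 CPM. All high light libraries lay above all high CO2 libraries, as was so in this direction for 33.3% of genes tested. Its log2 fold change was 1.23 ± 0.18 (SE; edgeR adjusted p = 3.9e-04), which is above that of 83.7% of tested genes. Averaged over all 6 libraries, the log2 CPM of APX1 exceeded that of 99.6% of tested genes.

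APX2 is a cytosolic form known to be induced by excess light and heat and to be a target of the heat shock factor HSFA2. High CO2 replicates 1 to 3 gave 0, 1 and 0 counts of it, and those of high light gave 27, 41 and 20. The high light levels were 1.25, 1.78 and 0.919 CPM, each above the 0.0445 CPM of the single high CO2 library with a count. A count of 0 in a library allows up to 3 counts, or 0.142 CPM in high CO2 replicate 1 and 0.156 CPM in replicate 3. By counts the ratio was 83.2-fold, with a 95% exact binomial interval of 14.5 to 3323 that covers counting error only. The edgeR test called the rise (log2 fold change 5.93 ± 0.75, adjusted p = 1.2e-04). This estimate rests on 1 count in high CO2, and the DESeq2 fit gave 6.30 ± 1.28, so the standard error is no firm measure of spread. Without high CO2 replicate 2 no count was left in that group. Set against 3 counts over its remaining libraries, the ratio was 17.8-fold, a bound that leaves out counting error in high light. Leaving out high CO2 replicate 1 gave 55.2-fold (9.65 to 2204). Even after the rise APX2 was rare, as its counts came to 88 over the high light libraries against 171502 of APX1.

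APX6 differed from the other cytosolic members. This gene, known from work on seeds and germination, had 24.1, 26.4 and 25.8 CPM in high CO2 and 19.8, 16.9 and 16.7 CPM in high light. The groups did not overlap, with high light lower, as for 33.9% of genes tested. Its log2 fold change was -0.51 ± 0.12 (edgeR adjusted p = 0.00603). It missed the threshold when high CO2 replicate 2 was left out (log2 fold change -0.46, edgeR adjusted p = 0.0502). The same held with replicate 3 left out of both groups (-0.38), where the edgeR adjusted p of 0.0547 was the highest of its refits and 6.0e-04 the lowest.

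The peroxisomal members stand next to the compartment where photorespiratory hydrogen peroxide arises. APX3, an abundant transcript of this pair, had 231, 248 and 230 CPM in high CO2 and 231, 181 and 218 CPM in high light. The groups overlapped at the top, and the log2 fold change of -0.17 ± 0.14 did not pass the test (edgeR adjusted p = 0.319). APX5 was far rarer, with 5.67, 7.87 and 5.94 CPM in high CO2 and 4.58, 3.68 and 3.77 CPM in high light. Every high light library was below the high CO2 libraries, and APX5 fell (log2 fold change -0.70 ± 0.19, edgeR adjusted p = 0.0121). High CO2 replicate 2 was the highest library: without it the log2 fold change was -0.50 and the call was lost (edgeR adjusted p = 0.0825, the highest of its refits, the lowest being 0.00214).

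The plastid members, which remove hydrogen peroxide near photosystem I, had lower means in high light, and the thylakoid form passed the test. TAPX had 232, 249 and 208 CPM in high CO2 and 164, 148 and 138 CPM in high light, without overlap. It fell with a log2 fold change of -0.61 ± 0.14 (edgeR adjusted p = 0.00460), a call that every refit kept. SAPX had 203, 187 and 129 CPM in high CO2 and 137, 119 and 131 CPM in high light. High CO2 replicate 3 lay among the high light libraries, the other high CO2 libraries above them, and the log2 fold change of -0.43 ± 0.18 did not pass the test (edgeR adjusted p = 0.0710). Without that library SAPX passed, with a log2 fold change of -0.54 (edgeR adjusted p = 0.00818). It also passed with replicate 3 left out of both groups, at -0.53 (edgeR adjusted p = 0.0158), and its refits spanned edgeR adjusted p = 0.00818 to 0.236. High CO2 replicate 3 also had the smallest total, 18047295 counts against 21672913 to 24149149 in the others; the part of this in its SAPX level was not tested.

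**Figure D2:**
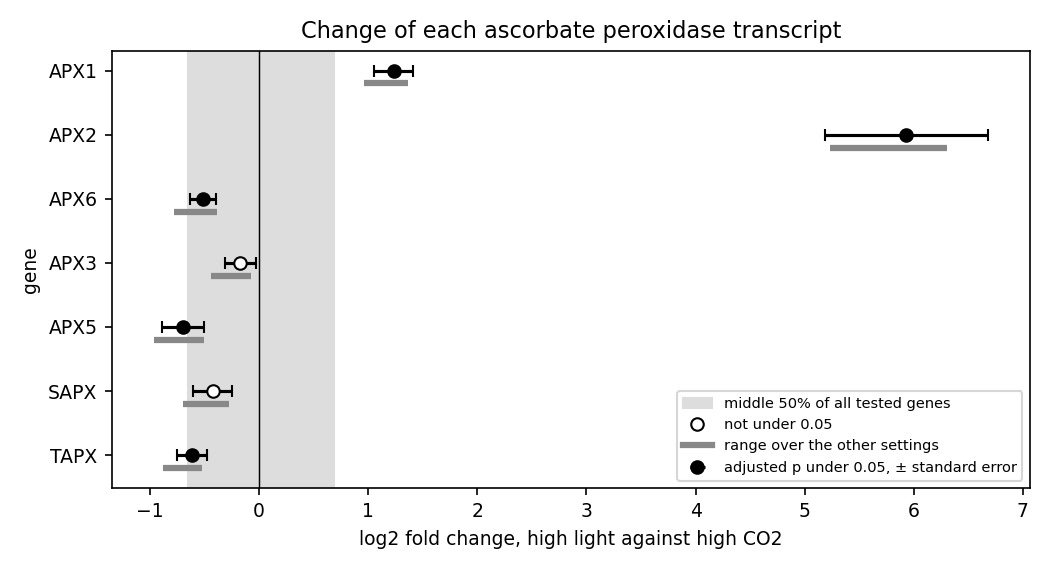
Log2 fold changes of the 7 genes, high light against high CO2, as edgeR estimates with standard errors, with filled points where the adjusted p was under 0.05 and a grey bar for the range over the 14 other settings (for APX2 without the fit that leaves high CO2 at 0 counts). The grey band runs from the 25th to the 75th percentile of all tested genes (-0.65 to 0.69): APX1 and APX2 lie to its right, at 1.23 and 5.93. APX5 lies just to its left, at -0.70, and APX6, APX3, SAPX and TAPX lie inside it, below 0. The APX2 estimate and its standard error rest on 1 count in high CO2.

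These directions were the same for all 7 members in each of 14 refits. Scaling mattered for the weak changes: upper-quartile factors shifted the median over all genes from -0.06 to -0.33 on the log2 scale. Under them APX3 also passed as a fall (-0.44, edgeR adjusted p = 0.0205), as did SAPX (-0.70, edgeR adjusted p = 0.00938), while APX1 stayed a rise at 0.96. The same scaling called 4386 genes as risen and 7883 as fallen, against 5631 and 5616 with TMM.

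Levels of different genes were compared per kilobase of exon. In high CO2 the order of mean length-scaled levels was APX1 at 615 ± 75.9 CPM per kilobase (SD, n = 3), APX3 at 178 ± 7.86, TAPX at 91.3 ± 8.11, SAPX at 87.4 ± 19.6, APX6 at 21.0 ± 0.983, APX5 at 4.80 ± 0.887 and APX2 at 0.0139 ± 0.0240. In high light it was APX1 at 1447 ± 228 CPM per kilobase, APX3 at 158 ± 19.5, SAPX at 65.1 ± 4.73, TAPX at 59.7 ± 5.11, APX6 at 14.7 ± 1.41, APX5 at 2.97 ± 0.364 and APX2 at 1.23 ± 0.405. TAPX and SAPX were the only neighbours in either order whose libraries overlapped, and they exchanged places. The rest of the order was the same in both groups, also per kilobase of coding length, where TAPX stood before SAPX in both.

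Summed by compartment, the cytosolic members had length-scaled levels of 600, 724 and 585 CPM per kilobase in high CO2, against 1561, 1202 and 1624 under high light, which is 2.30-fold higher by mean. The peroxisomal sum was 178, 193 and 178 CPM per kilobase in high CO2, against 177, 139 and 167 under high light, with the highest of the latter just under the lowest of the former. The plastid sum was 195, 194 and 148 CPM per kilobase in high CO2, against 134, 119 and 121 under high light, or 0.698 times as high by mean. Each of the 3 differences gave p = 0.1 in the exact two-sided permutation test, the smallest that 3 against 3 libraries allow. This p says only that the libraries of the groups did not overlap, as was so for 67.2% of single genes tested. For the peroxisomal sum p was 0.3 with DESeq2 size factors and 0.2 with library totals. The whole family came to 998 ± 103 CPM per kilobase in high CO2 and 1748 ± 251 in high light (SD, n = 3).

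Cytosolic transcripts made up 63.7% ± 1.83 of the length-scaled family total in high CO2 and 83.5% ± 1.30 in high light (SD, n = 3). The peroxisomal share went from 18.4% ± 1.06 to 9.24% ± 0.435 and the plastid share from 17.9% ± 1.92 to 7.22% ± 0.906. For each share the libraries of the groups lay apart, again at the smallest possible p = 0.1 of the exact permutation test. The shares add up to 100% in each library, so a higher cytosolic share alone lowers the others, and these are not separate results. APX1 alone held 61.6% ± 1.83 of the total in high CO2 and 82.6% ± 1.46 in high light, so nearly all of the cytosolic share was APX1, while APX2 reached 0.0738% ± 0.0359 in high light. With coding in place of exon length the cytosolic share was 70.7% ± 1.69 in high CO2 and 87.7% ± 1.08 in high light.

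**Figure D3:**
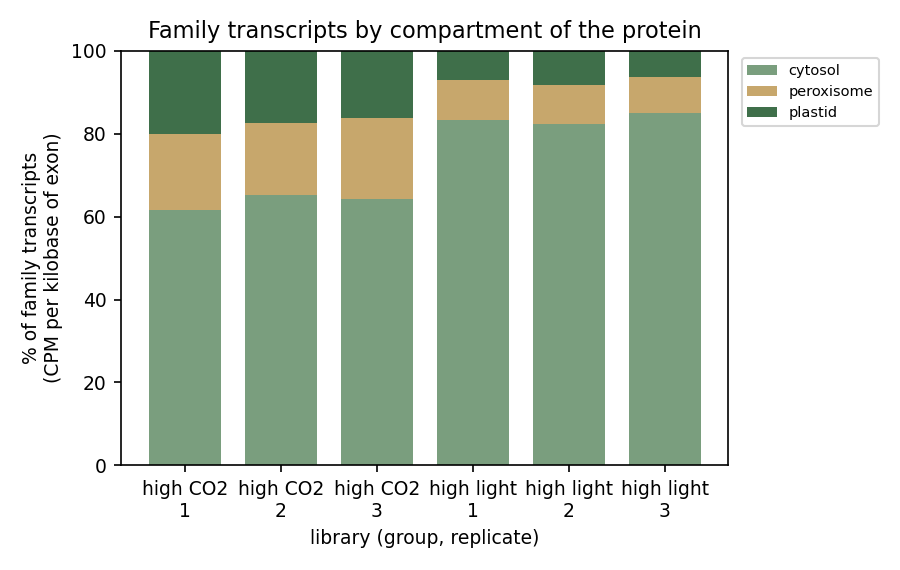
Share of the length-scaled transcripts of the family (CPM per kilobase of exon) by the compartment of the protein, as a stacked bar for each of the 6 libraries. The cytosolic part is 61.7% to 65.2% in the high CO2 libraries and 82.3% to 84.9% in the high light libraries.

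Ratios within a library compare the sums directly and do not depend on library scaling. By mean level APX1 was 615 of the cytosolic 636 CPM per kilobase in high CO2 and 1447 of 1463 in high light. APX3 was 178 of the peroxisomal 183 in high CO2 and 158 of 161 in high light. The cytosolic to peroxisomal ratio therefore largely repeats, inverted, that of APX3 to APX1, and cytosolic APX6 fell. The cytosolic to plastid ratio was 3.08, 3.74 and 3.95 at high CO2 against 11.6, 10.1 and 13.4 at high light, a 3.26-fold difference of geometric means. The cytosolic to peroxisomal ratio was 3.37, 3.75 and 3.30 against 8.81, 8.65 and 9.72, a 2.61-fold difference. Peroxisomal and plastid sums changed less against each other, with ratios of 0.916, 0.997 and 1.20 at high CO2 against 1.32, 1.17 and 1.38 at high light, which overlapped. Of single members, APX1 to TAPX went from a geometric mean of 6.72 to 24.1 and APX3 to APX1 from 0.291 to 0.110, both without overlap. The ratio of the plastid pair, SAPX to TAPX, was 1.11, 0.956 and 0.788 at high CO2 against 1.06, 1.02 and 1.20 at high light, with overlap. Its log2 difference was 0.21, and 0.01 with replicate 3 left out of both groups. Over the 6 ratios the exact two-sided permutation test gave p = 0.1 for the 4 without overlap (Benjamini-Hochberg adjusted p = 0.15), p = 0.2 for peroxisomal to plastid (adjusted p = 0.24) and p = 0.3 for SAPX to TAPX (adjusted p = 0.30), in a design that cannot go below 0.1.

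**Figure D4:**
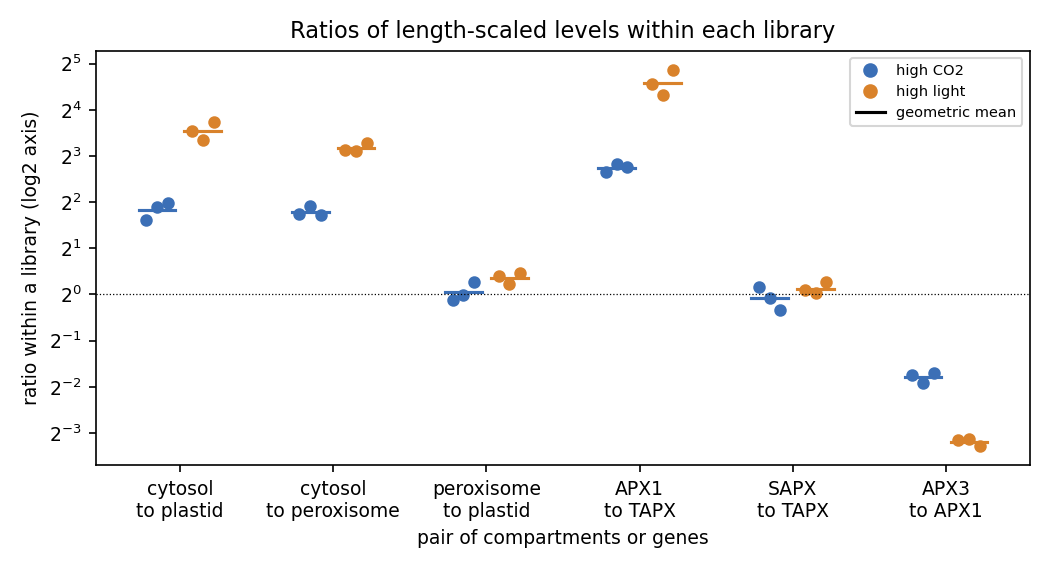
Ratios of length-scaled levels within each library on a log2 axis, with a point per library and a bar at the geometric mean of each group. High light lies above high CO2 for cytosol to plastid, cytosol to peroxisome and APX1 to TAPX, below it for APX3 to APX1, and the groups overlap for peroxisome to plastid and SAPX to TAPX.

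The members are related but distinct in sequence, which bears on how far the counting could mix their reads. Over aligned coding bases, SAPX and TAPX were the closest pair by global alignment (77.3% identity over 1028 bases), followed by APX1 and APX2 (72.5% over 750) and APX3 and APX5 (69.9% over 837). APX6 stood farthest, at 56.8% to 61.5% with the other members. In a BLAST search of all coding sequences the best match of each of the other 6 members was its partner in these pairs, at up to 80.5% identity. An opposite-strand gene covered 5.62% of the exon bases of APX5 and 0% of those of the other members, and no source used here says whether the counting was by strand.

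The genes of the same pathway were counted next, against the share of all genes tested that was called, 30.4% in each direction. With upper-quartile factors, 4386 of 18504 genes rose and 7883 fell. Of 10 genes of ascorbate and glutathione recycling 3 rose and 4 fell. MDAR3, a cytosolic monodehydroascorbate reductase, had the largest rise, with a log2 fold change of 3.93 ± 0.28 (edgeR adjusted p = 6.7e-06). GR2, the glutathione reductase of plastids and mitochondria, had the largest fall (log2 fold change -1.06 ± 0.14, edgeR adjusted p = 2.2e-04). Of 7 ascorbate synthesis genes 1 rose and 3 fell, the largest fall being that of VTC2, the controlling GDP-L-galactose phosphorylase. Its level was 776 ± 62.2 CPM in high CO2 against 258 ± 20.3 CPM (log2 fold change -1.59 ± 0.14, edgeR adjusted p = 2.6e-05). Its close relative VTC5 was the 1 that rose (log2 fold change 0.51 ± 0.14, edgeR adjusted p = 0.0107), and with upper-quartile factors 0 rose and 6 fell.

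Of 7 superoxide dismutases, which supply hydrogen peroxide to these enzymes, 0 rose and 3 fell, with FSD3 of the plastid nucleoid the largest fall (log2 fold change -0.94 ± 0.32, edgeR adjusted p = 0.0308). None of the 3 falls held in all fits: 0 were called when replicate 1 or 2 of high CO2 or replicate 3 of high light was left out, 1 when high light replicate 2 was, and 6 with upper-quartile factors. Among 17 tested of 19 other peroxide-removing genes (catalases, glutathione peroxidase-like proteins and peroxiredoxins), 8 rose and 5 fell. With upper-quartile factors these were 2 and 8, and 3 fell when replicate 1 or 2 of high CO2 or replicate 2 of high light was left out. PRXIIC, a cytosolic peroxiredoxin with close copies that could share its reads, had the largest rise (log2 fold change 4.44 ± 0.55, edgeR adjusted p = 1.6e-04). CAT2, the mutated catalase, had the largest fall (log2 fold change -1.24 ± 0.16, edgeR adjusted p = 1.9e-04). TL29, a thylakoid lumen protein once named APX4 that resembles the family, also fell (log2 fold change -0.63 ± 0.17, edgeR adjusted p = 0.0110), a call lost without high CO2 replicate 2.

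Factors linked to the cytosolic genes were also measured. HSFA2 activates APX2, ZAT10 raises it when overexpressed and ZAT12 is needed for APX1 induction in oxidative stress, all in *Arabidopsis*. Of 8 such heat shock and zinc-finger factors 5 rose and 0 fell, beside 30.4% of all genes tested in each direction. The list was chosen with earlier results of these data known, and a link from these factors to the APX changes was not tested. HSFA2 went from 0.928 ± 0.275 to 342 ± 51.7 CPM, ZAT12 from 1.14 ± 0.258 to 247 ± 35.2 CPM and ZAT10 from 2.92 ± 0.624 to 196 ± 26.1 CPM (SD, n = 3; edgeR adjusted p = 2.2e-07, 2.2e-07 and 2.5e-07). HSFA3 rose from 1.25 ± 0.227 to 40.0 ± 18.8 CPM and HSFA1D from 6.24 ± 0.820 to 16.6 ± 1.08 CPM (adjusted p = 8.9e-06 and 6.0e-05 in edgeR). The other HSFA1 factors, HSFA1A, HSFA1B and HSFA1E, did not pass the test, at 0.08, 0.24 and -0.07 on the log2 scale (edgeR adjusted p = 0.692, 0.361 and 0.718).

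**Figure D5:**
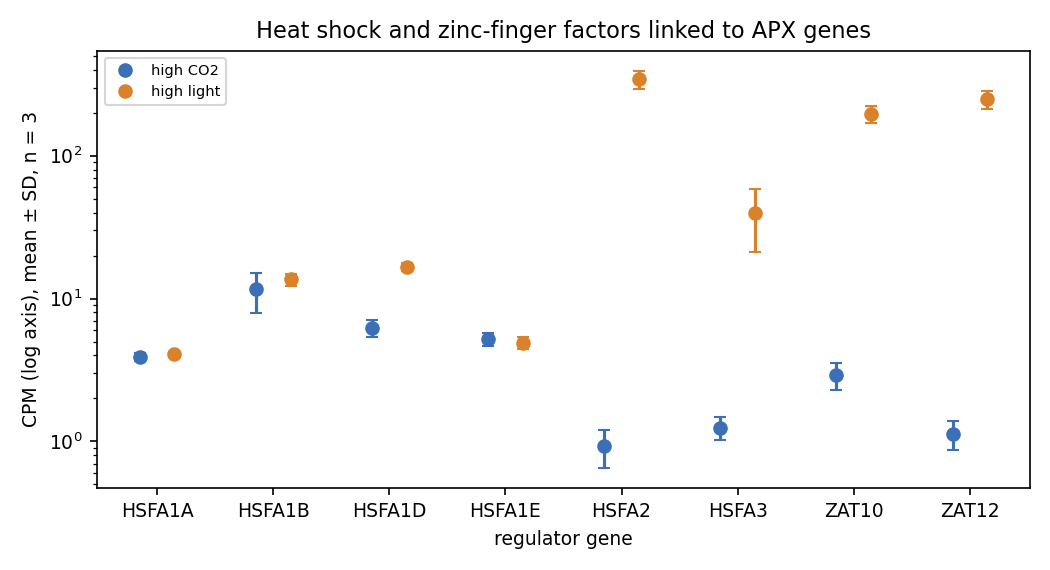
Transcripts of 8 heat shock and zinc-finger factors linked to APX1 or APX2, as mean CPM ± SD of 3 libraries on a log axis. HSFA2, HSFA3, ZAT10, ZAT12 and HSFA1D are higher in high light, and HSFA1A, HSFA1B and HSFA1E have means close to each other in the groups.

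For each called member the 2 tested genes with the closest profile were found, by the root mean square difference of log2 CPM centred on each gene's mean over the 6 libraries. The 6 points fall into the 2 groups, so this mostly matches genes of like change. For APX1 they were AT4G17940 and AT2G36410 (differences of 0.07 and 0.07 on the log2 scale). For APX2 they were the nudix hydrolase gene NUDT4 and the transcription factor gene WRKY67 (0.18 and 0.20). Their edgeR log2 fold changes were 3.97 and 5.51, against 5.93 for APX2. The prior count in log2 CPM narrows the change of a gene near 0 counts, as APX2 was in high CO2. For APX6 they were AT4G10030 and AT1G80360 (0.03 and 0.03), for APX5 LGO and the homeobox gene KNAT7 (0.06 and 0.07), and for TAPX the closest was AT5G11580 (0.04).

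Markers were read against the tissue label: all 6 genes of leaf photosynthetic cells had counts in every library, and both root hair markers were at 0. The summed leaf markers ran from 58001 to 81364 CPM in high CO2 and from 25893 to 35705 CPM in high light, and 6 of 6 fell, beside 30.4% of all genes tested. Epidermal markers fell for 3 of 3 (374 to 481 CPM against 206 to 251 CPM). Vascular and bundle sheath markers fell for 4 of 4 (566 to 603 CPM against 380.0 to 425 CPM), but for 0 of 4 when high CO2 replicate 2 was left out and for 2 of 4 when replicate 1 of either group, or replicate 3 of both, was left out. Of 4 guard cell markers 2 rose and 2 fell (57.9 to 65.0 CPM against 70.9 to 96.5 CPM). Flower markers were near 0 (0.804 to 1.56 CPM against 0.390 to 0.689 CPM), with AP1 at 1 count in all and not tested. The other, AG, fell, a call lost when high CO2 replicate 2 or 3 or high light replicate 1 or 2 was left out. The sums of the leaf, vascular, epidermal and flower lists were lower in high light, as TAPX, APX5 and APX6 were, and that of the guard cell list was higher. The part of these lists in the results was not tested.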

How the data were processed

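Raw counts of reads per gene, as the authors deposited them, were used for 6 libraries of *cat2-2* leaves, grouped by sample title. The kit was TruSeq Stranded mRNA per the labels' protocols. The submitters' processing notes name Trim Galore 0.3.3, TopHat2 2.1.0, featureCounts of Subread 1.4.6 and TAIR10; the sources used here give no settings for strand or for reads with several matches. Of 33604 rows, 2 with no gene name were left out. Totals ranged from 18047295 to 24149149 counts, and biological repeats differed beyond counting noise (chi-square divided by its degrees of freedom 9.28 to 49.8).

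Genes were filtered with filterByExpr (minimum 10 counts), scaled by TMM and tested with edgeR 4.0.16 in R 4.3.3 (glmQLFit and glmQLFTest, robust), high light against high CO2, two-sided, with Benjamini-Hochberg adjustment over 18504 genes. A standard error is the log2 fold change without shrinkage divided by the square root of F. Levels per kilobase use merged exon length. Sums and ratios were compared by exact permutation over libraries. Alternatives were DESeq2 1.42.0, limma-voom (limma 3.58.1), other scalings, no filter, a replicate block, coding length, the cytosol without APX6, and leaving out libraries.

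Annotation, coordinates and sequences are those of RefSeq's TAIR10.1, a revision of TAIR10; 32835 of 33602 loci matched. Coding sequences were compared with Biopython 1.88 and BLAST 2.17.0. Members, lists, markers and tests were chosen with earlier results of these data known. Named genes were all members, the largest called rise and fall of each pathway list, every regulator, and the 2 closest profiles of each called member (log2 CPM, prior count 2), 1 of which is not reported here.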

Additional observations from a re-analysis of the deposited data

How the results depend on the processing

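All 7 members kept their direction in every one of the 14 refits. APX1, APX2 and TAPX kept their calls as well, at 0.96 to 1.37, 5.23 to 6.30 and -0.88 to -0.52 on the log2 scale, the APX2 range leaving out the fit without high CO2 replicate 2, where that group had 0 counts and the fitted value is no estimate. With upper-quartile factors APX3 (-0.44) and SAPX (-0.70) were called, so 5 members fell in place of 3. The leave-out fits gave -0.59 to -0.38 for APX6, -0.80 to -0.50 for APX5 and -0.54 to -0.27 for SAPX (-0.53 without replicate 3 of both groups), and 1 to 4 fallen members. Over all genes that scaling called 4386 as risen and 7883 as fallen, against 5631 and 5616.

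With upper-quartile factors 0 ascorbate synthesis genes rose and 6 fell, 6 superoxide dismutases fell, and 2 other peroxide-removing genes rose and 8 fell. Under this scaling 4386 of all 18504 genes tested rose and 7883 fell. The median log2 fold change of all genes was -0.33 in place of -0.06, so these counts are not comparable with the TMM shares. Why the scalings differ was not tested. In the leave-out fits 0 to 3 superoxide dismutases, 3 to 5 other peroxide-removing genes and 0 to 1 TL29 fell. Over all genes these fits called 4274 to 5368 as fallen, against 5616 with all libraries. The log2 difference of the SAPX to TAPX ratio was 0.01 to 0.33 in them, against 0.21 with all libraries.

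Same-numbered libraries correlated in their deviations from the group means at 0.219, -0.0207 and 0.410 over genes. High CO2 replicate 1 correlated at 0.235 with high light replicate 2 and at -0.413 with high light replicate 3. The labels do not say that a number marks a shared batch, and these values do not settle it, so the numbers were not treated as pairs. With the replicate number as a block 5880 genes rose and 6071 fell, and SAPX was called at -0.40 (edgeR adjusted p = 0.0490). For the cytosolic sum the block gave the smallest p that an exact permutation of 3 pairs allows, 0.25. Rare transcripts limit precision, above all APX2.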

Other observations

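The reductases that return oxidised ascorbate and glutathione are given here by compartment, a grouping made after their values were seen, with no test between compartments. Of all genes tested, 30.4% were called higher and 30.4% lower. Among 5 genes of cytosolic enzymes, MDAR2, MDAR3 and DHAR2 rose by log2 fold changes equal to 3.21 ± 0.19, 3.93 ± 0.28 and 3.62 ± 0.18 (edgeR adjusted p = 2.2e-06, 6.7e-06 and 8.8e-07), whereas GR1 and DHAR1 did not pass the test (0.27 ± 0.14 and 0.28 ± 0.29, edgeR adjusted p = 0.127 and 0.414). The plastid forms (MDAR6 and GR2 also serve mitochondria) MDAR6, DHAR3 and GR2 fell, their log2 fold changes being -0.93 ± 0.22, -0.61 ± 0.15 and -1.06 ± 0.14 (edgeR adjusted p = 0.00553, 0.00611 and 2.2e-04), beside TAPX at -0.61 ± 0.14. MDAR4, bound to the peroxisomal membrane as APX3 is, also fell (log2 fold change -0.61 ± 0.13, edgeR adjusted p = 0.00389), and the peroxisomal MDAR1 did not pass the test (-0.17 ± 0.13, edgeR adjusted p = 0.298).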
